A study of Mus musculus with 4 samples.

Results

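The genes described here encode the β subunits of the sodium-potassium pump (Atp1b1, Atp1b2 and Atp1b3) and the plasma membrane calcium pumps (Atp2b1, Atp2b2, Atp2b3 and Atp2b4). The rule used their symbols only, although the list was drawn up with earlier results of these data known, and all 7 were present among the 21933 genes of the count matrices. The nuclei came from the right cerebral cortex of adult male mice, 2 wild-type control littermates (CrT+/y) and 2 CrT-KO animals (CrT-/y), all untreated. CrT-KO males carry a constitutive deletion of several exons of Slc6a8, the X-linked gene for the creatine transporter, in every cell. Each library held the nuclei of 1 animal, and no animals were pooled.

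The sodium-potassium pump uses ATP to move sodium out of the cell and potassium in, and it restores the gradients that action potentials and synaptic currents run down. Its catalytic subunit leaves the endoplasmic reticulum only when joined to a β subunit. The plasma membrane calcium pumps, also ATPases, expel calcium after activity and set its resting level with the sodium-calcium exchangers. Creatine and creatine kinase buffer the ATP that such pumps use, so the comparison of genotypes asks whether the transcripts of these large ATP users differ where creatine uptake is lost.

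The 4 libraries held from 8282 to 9295 nuclei and from 51507483 to 65240843 unique molecular identifiers (UMIs, each counted as 1 captured RNA molecule), with a median of 5548 to 6700.5 UMIs per nucleus. Any pair of libraries shared 12 to 19 barcodes, at most 0.215% of the smaller library. After 1213 doublets were removed, 34406 of 34481 nuclei took a name from marker genes. They comprised 17043 excitatory neurons, 8384 inhibitory neurons, 5122 oligodendrocytes, 2220 microglia, 663 oligodendrocyte precursors, 493 astrocytes, and 481 endothelial cells and pericytes. The inhibitory class includes a subcluster of 393 nuclei without a subclass name, among whose leading genes is Slc17a6, a vesicular glutamate transporter, and its part in the inhibitory values was not tested. Although the tissue was dissected as cortex, nuclei with markers of striatal medium spiny neurons (MSN-like) made up 30.1% to 34.2% of the inhibitory neurons of each library. In both CrT-KO libraries Slc6a8 matched the labels. It measured 6.77 and 6.14 UMIs per 1000000 UMIs of the population (CPM) in the controls and 1.65 and 1.67 CPM in CrT-KO over all named nuclei (log2 fold change of CrT-KO over control, log2FC, -1.96, SE 0.15, adjusted p 0.0102 by edgeR).

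The levels of the 7 genes were compared over 18 populations that do not contain each other, with one CPM value per library and population. CPM is a level within one population, so a gene's CPM can be set against its own CPM elsewhere but not against the CPM of a gene of another length. The order of populations is a description, without a test. Neighbours in that order are called apart only where the ranges of the 4 libraries did not meet. Populations were clustered without these genes. The names given to subclasses end in "-like" because they rest on marker lists alone.

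**Figure D1:**
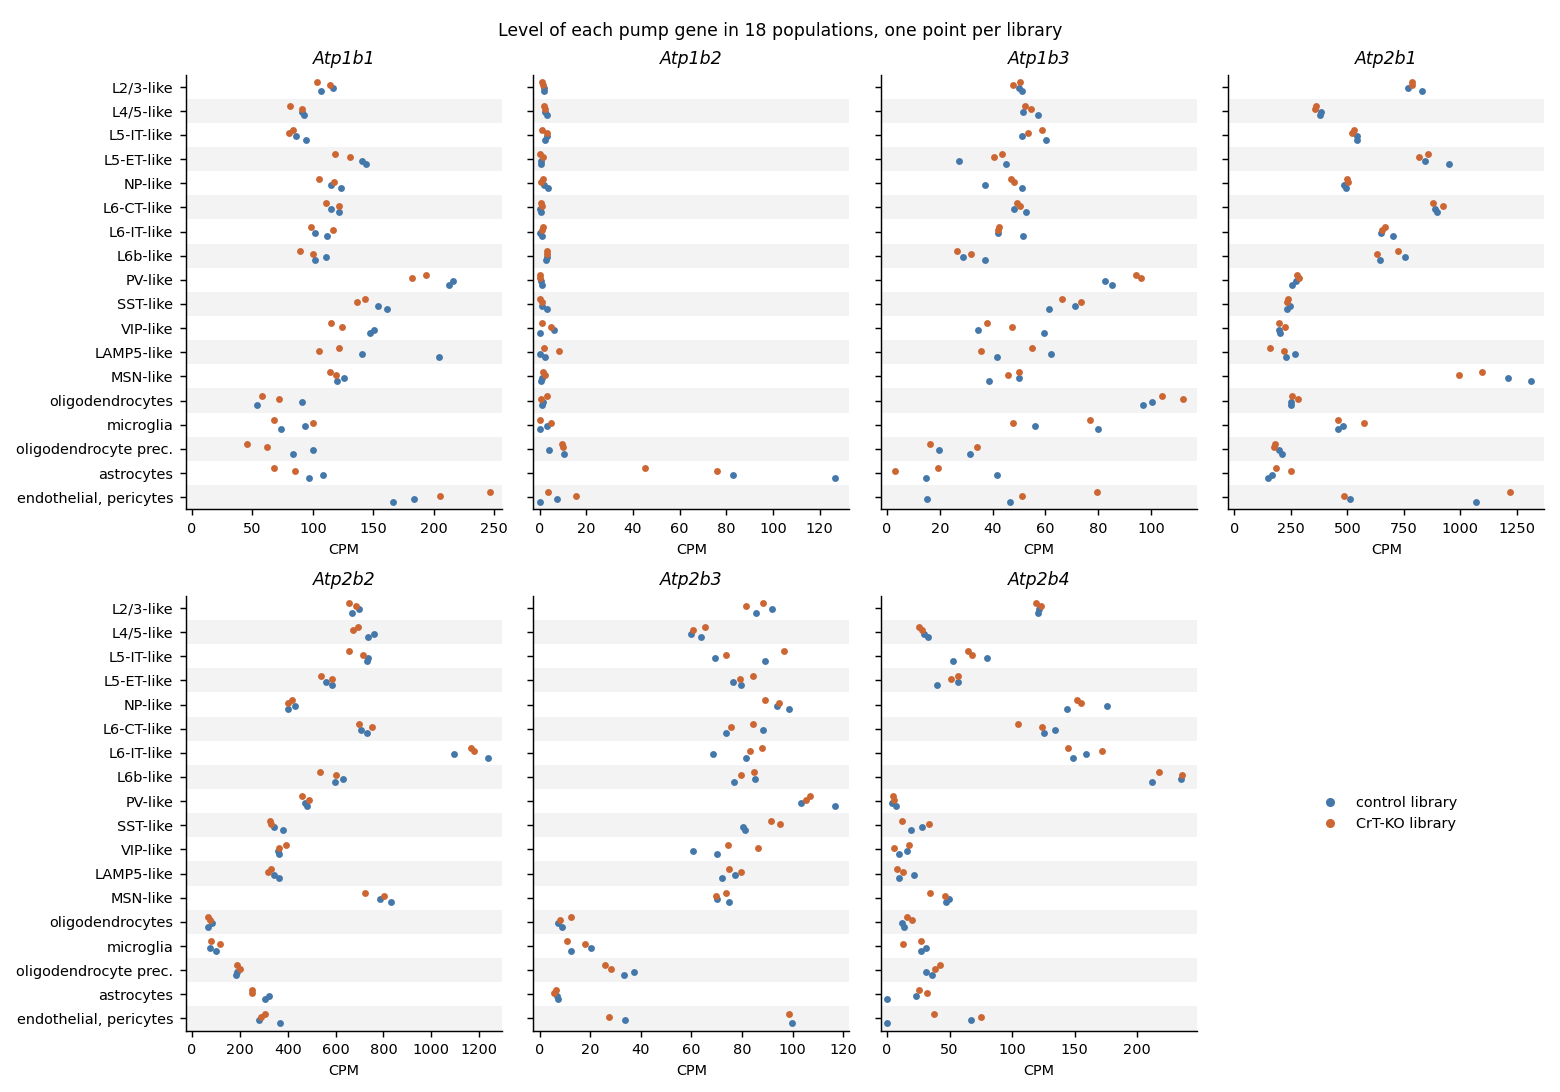
Level of each of the 7 pump genes (CPM, linear axis that differs between panels) in 18 populations, with one point per library in blue for control and orange for CrT-KO. Atp1b2 stood apart in astrocytes, at 45.1 to 126 CPM, Atp2b2 in L6-IT-like nuclei, at 1097 to 1237 CPM, and Atp2b4 in L6b-like nuclei, at 212 to 236 CPM. Atp2b1 was highest in MSN-like nuclei, at 996 to 1314 CPM, a range that single libraries of the endothelial cells and pericytes reached (up to 1221 CPM).

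Atp1b1 (ENSMUSG00000026576, chromosome 1, 164437109 to 164458355, minus strand, GRCm38) encodes the β1 subunit, the usual neuronal partner of the catalytic subunit. It was highest in PV-like interneurons, the fast-spiking class marked by parvalbumin, at 213 and 216 CPM in controls and 182 and 194 CPM in CrT-KO. SST-like interneurons followed among neurons, at 161 and 154 CPM in controls and 136 and 143 CPM in CrT-KO. The PV-like libraries all lay above the SST-like libraries. Excitatory neurons held 109 and 111 CPM in controls and 111 and 101 CPM in CrT-KO. Among excitatory subclasses the mean ran from 85.9 CPM in L5-IT-like to 133 CPM in L5-ET-like nuclei, the thick-tufted cells that project out of the cortex. Oligodendrocytes were lowest, at 68.6 CPM on average (53.7 to 91.1 CPM), so the whole range of Atp1b1 spanned 2.93-fold. Only 1 of the neighbouring steps in its order was apart. At 617 bases Atp1b1 overlaps Nme7 on the other strand, and whether counting used the strand is not given in the sources used here.

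Atp1b2 (ENSMUSG00000041329, chromosome 11, 69599736 to 69605942, minus strand) encodes the β2 subunit, also known as the adhesion molecule on glia. It had the narrowest distribution of the 7 genes. Astrocytes held 126 and 83.0 CPM in controls and 76.2 and 45.1 CPM in CrT-KO, from 17, 36, 26 and 14 UMIs. Oligodendrocyte precursors came next with a mean of 8.53 CPM (3.92 to 10.5 CPM), from 15 UMIs. No library of any other population reached the lowest astrocyte library. Neurons were close to empty, with 1.70 CPM on average in excitatory neurons (1.35 to 1.92 CPM) and 0.52 CPM in PV-like nuclei, where 5 UMIs were found in all. The step from astrocytes to the next population was the only one apart, and the small number of astrocytes (60 to 171 nuclei per library) limits the precision of the level.

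Atp1b3 (ENSMUSG00000032412, chromosome 9, 96332655 to 96364442, minus strand) encodes the β3 subunit. Its highest level was in oligodendrocytes, the myelinating cells, at 96.7 and 100.2 CPM in controls and 112 and 104 CPM in CrT-KO. PV-like interneurons were next at 85.2 and 82.5 CPM in controls and 96.2 and 94.3 CPM in CrT-KO. Both populations stood apart from the one below, SST-like nuclei following at 68.0 CPM (61.3 to 73.3 CPM). The excitatory mean was 49.0 CPM (47.1 to 51.5 CPM). Astrocytes were at the bottom, with 19.7 CPM (2.93 to 41.5 CPM) from 27 UMIs. When doublets were kept this order turned, with 89.3 CPM in oligodendrocytes (85.1 to 94.2 CPM) and 91.5 CPM in PV-like nuclei (84.7 to 95.6 CPM), and the ranges overlapped.

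Levels of different genes were then set side by side per kilobase of gene body, since intronic reads entered the counts. The kit primes at poly(A) stretches, so gene length corrects only in part. On this per-length scale Atp1b1 made up 73.7% of the β subunit signal of excitatory neurons (72.7% to 74.8% over the 4 libraries), Atp1b3 22.4% and Atp1b2 3.96%. In PV-like nuclei Atp1b1 made up 76.4% and Atp1b3 22.9%. Astrocytes reversed this makeup on the same scale, with Atp1b2 at 72.1% (65.7% to 80.2%) and Atp1b1 at 24.2% (17.9% to 28.8%). Without division by length they held 82.7 CPM of Atp1b2 (45.1 to 126 CPM) and 89.4 CPM of Atp1b1 (67.6 to 108 CPM). The reversal thus rests on that division. Oligodendrocytes divided the signal between Atp1b3, at 48.6% (41.1% to 52.8%), and Atp1b1, at 47.4% (41.5% to 56.0%), shares whose ranges overlapped. The sum of the 3 genes was largest in astrocytes, at 18.1 CPM per kb (11.0 to 25.4), and was 12.4 CPM per kb in PV-like nuclei (11.7 to 12.9) and 6.90 CPM per kb in excitatory neurons (6.49 to 7.07). In CPM, without division by length, the order of the sums was another one, with 291 CPM in PV-like nuclei (279 to 299 CPM), 255 CPM in endothelial cells and pericytes (206 to 330 CPM), 218 CPM in SST-like nuclei (209 to 226 CPM) and 192 CPM in astrocytes (132 to 238 CPM).

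**Figure D2:**
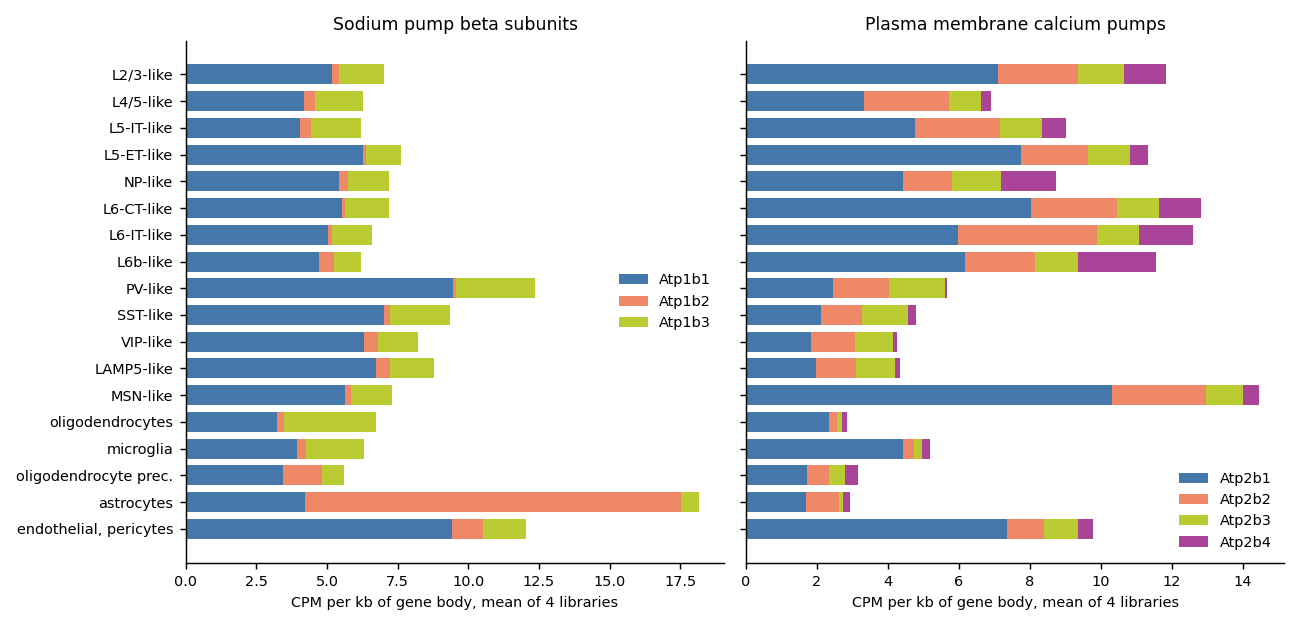
Stacked bars of the mean of 4 libraries, in CPM per kilobase of gene body, for the β subunits (left) and the plasma membrane calcium pumps (right) in 18 populations. Atp1b2 is the longest piece of the astrocyte bar, at 13.3 of 18.1 CPM per kb, and the calcium pump bar is longest in MSN-like nuclei, at 14.5 CPM per kb, and shortest in oligodendrocytes, at 2.86 CPM per kb.

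Atp2b1 (ENSMUSG00000019943, chromosome 10, 98914406 to 99026143, plus strand) encodes PMCA1, the widely expressed calcium pump. It was highest in MSN-like nuclei, at 1314 and 1209.7 CPM in controls and 996 and 1095 CPM in CrT-KO, apart from every other population except for single libraries of the endothelial cells and pericytes. L6-CT-like nuclei, the corticothalamic cells of layer 6, held 899 and 888 CPM in controls and 925 and 879 CPM in CrT-KO. L2/3-like nuclei held 829 and 769 CPM in controls and 788 and 786 CPM in CrT-KO. L4/5-like nuclei were lowest among excitatory subclasses at 370.2 CPM (357 to 382 CPM), below each library of every other excitatory subclass. Cortical interneurons lay lower still, with means of 205 CPM in VIP-like, 219 CPM in LAMP5-like, 238 CPM in SST-like and 272 CPM in PV-like nuclei. Microglia, at 493 CPM (457 to 573 CPM), stood above all of these interneurons. The lowest mean was that of astrocytes, at 187 CPM, 6.16-fold under that of MSN-like nuclei, and 7 neighbouring steps were apart.

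Atp2b2 (ENSMUSG00000030302, chromosome 6, 113743831 to 114042613, minus strand) encodes PMCA2, a fast calcium pump of neurons and hair cells. L6-IT-like nuclei led at 1237 and 1097 CPM in controls and 1180.3 and 1168 CPM in CrT-KO. With a coarser clustering (Leiden resolution 0.8) the population of that name averaged 854 CPM (821 to 881 CPM), so the size of this level depends on how the cluster is drawn. The name L6-IT-like covers 377 nuclei here and for the other genes. Another subcluster of 1204 nuclei also scored best as L6-IT-like, but it reached too few markers and took no subclass name, so these values leave it out. MSN-like nuclei followed at 786 CPM (724 to 830.3 CPM), a range that met the one from the coarser clustering. The other excitatory subclasses ran from 412 CPM in NP-like to 722 CPM in L6-CT-like nuclei. PV-like nuclei, at 475 CPM (459 to 487 CPM), stood above each library of the other cortical interneurons, whose means were 344 CPM in SST-like, 370.0 CPM in VIP-like and 338 CPM in LAMP5-like nuclei. Oligodendrocytes were lowest at 72.7 CPM (64.6 to 84.4 CPM), 16.1-fold under L6-IT-like nuclei. The gene overlaps 3 other records, 2 of them on the opposite strand.

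Atp2b3 (ENSMUSG00000031376, chromosome X, 73503086 to 73571005, plus strand) encodes PMCA3. PV-like nuclei were highest, at 117 and 103 CPM in controls and 105 and 107 CPM in CrT-KO, and apart from NP-like nuclei, at 94.0 CPM (89.3 to 98.5 CPM). The other neuronal populations lay between 62.5 CPM in L4/5-like and 87.0 CPM in SST-like nuclei, and of these only L4/5-like nuclei stood apart from the neuronal population above them in the order. Atp2b3 thus had the flattest neuronal profile of the 4 calcium pumps in CPM, while its mean was 9.14 CPM in oligodendrocytes and 6.66 CPM in astrocytes, the latter from 8 UMIs.

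Atp2b4 (ENSMUSG00000026463, chromosome 1, 133699457 to 133801041, minus strand) encodes PMCA4. L6b-like nuclei, of the deepest cortical layer, held 212 and 235 CPM in controls and 236 and 217 CPM in CrT-KO. NP-like nuclei (157 CPM) and L6-IT-like nuclei (156 CPM) overlapped each other and stood apart from L6-CT-like (122 CPM) and L2/3-like nuclei (121 CPM). The name NP-like pools a subcluster of 504 nuclei with a larger one of 656 nuclei, here and for the other genes. The NP-like markers Nxph1, Vwc2l, Tshz2 and Etv1 were among the leading genes of the smaller subcluster. The leading genes of the larger subcluster held the NP-like markers Lypd1 and Trhr instead. The part of each subcluster in the NP-like values was not tested. L5-IT-like nuclei were at 66.3 CPM, L5-ET-like at 51.0 CPM and L4/5-like at 28.9 CPM. PV-like nuclei were lowest of the 18 populations with 7.10 and 3.95 CPM in controls and 5.52 and 4.89 CPM in CrT-KO, a mean 42.0-fold under that of L6b-like nuclei. When the pump genes were allowed in the clustering, the L6b-like mean was 246 CPM.

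The makeup of the calcium pump signal was then set out per kilobase of gene body. Atp2b1 made up 58.1% of their summed signal in excitatory neurons (57.0% to 59.0%), Atp2b2 21.5%, Atp2b3 11.2% and Atp2b4 9.26%. PV-like nuclei held 43.0% Atp2b1, 28.0% Atp2b2, 28.1% Atp2b3 and 0.93% Atp2b4. The shares of Atp2b1, Atp2b2 and Atp2b3 in VIP-like nuclei, at 43.0%, 29.1% and 25.1%, overlapped those of PV-like nuclei, and VIP-like and LAMP5-like nuclei overlapped in the shares of all 4 pumps. MSN-like nuclei held 71.3% Atp2b1 and 3.03% Atp2b4. Atp2b4 reached 19.2% in L6b-like nuclei (18.3% to 20.9%) and 17.7% in NP-like nuclei (16.4% to 19.5%), and Atp2b2 reached 34.6% in L4/5-like nuclei (34.0% to 35.6%). The summed signal was 14.5 CPM per kb in MSN-like nuclei (13.1 to 16.1), 12.8 in L6-CT-like nuclei (12.5 to 13.1) and 5.67 in PV-like nuclei (5.57 to 5.81). The other cortical interneurons held 4.78 (SST-like), 4.34 (LAMP5-like) and 4.26 CPM per kb (VIP-like), so all 4 interneuron subclasses lay below each excitatory subclass, of which L4/5-like was lowest at 6.91 (6.62 to 7.14).

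Free RNA in droplet data can put neuronal UMIs into glial nuclei. The glial levels were therefore set beside 7 excitatory markers, such as Slc17a7 and Camk2a, picked from the 15 used for naming. As a percentage of their level in excitatory neurons, these markers had a median of 13.3% in oligodendrocytes (9.25% to 39.9% over the markers), 18.5% in microglia (14.6% to 30.0%) and 9.83% in astrocytes (7.18% to 15.6%). In oligodendrocytes Atp2b2 stood at 10.8% of its excitatory level, Atp2b3 at 11.4% and Atp2b4 at 15.7%, all within the marker range. The top of that range was set by Neurod6 (39.9%), and Atp2b4 lay above the marker median of 13.3%. Whether these UMIs came from free RNA was not tested. In microglia Atp2b3 (19.4%) and Atp2b4 (25.1%) were likewise within the range, and Atp2b2 (13.8%) lay just under it. Atp2b1 was above 6 of the 7 markers in oligodendrocytes (38.1%) and above all of them in microglia (72.3%). Atp1b1, at 63.3% and 77.3%, and Atp1b3, at 211% and 132%, exceeded every marker in both. In astrocytes Atp2b2 (41.6%) and Atp2b1 (27.6%) exceeded the markers, and Atp2b3 (8.31%) did not.

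The same contrast appeared in the share of nuclei with a UMI after each nucleus was thinned to 1000 UMIs. Atp2b1 was found in 32.8% to 39.5% of microglia (33.3% to 41.9% unthinned) and Atp2b2 in 4.17% to 9.18% (7.0% to 11.6% unthinned). In excitatory neurons the shares were 43.9% to 50.0% for Atp2b1 and 45.3% to 49.3% for Atp2b2 (94.3% to 96.3% and 95.1% to 96.9% unthinned). Thinning left out 530 of 1064 control and 658 of 1156 CrT-KO microglia, and 7 of 17043 excitatory neurons. The thinned shares of microglia thus describe only their deeper nuclei. Median UMIs ran from 880 to 1032 in microglia and from 7323 to 8860 in excitatory neurons.

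Endothelial cells and pericytes cannot be read in this way, because the excitatory markers stood there at a median of 75.9% of their excitatory level (38.7% to 166%). Their Atp2b1 was 1072 and 513 CPM in controls and 485 and 1221 CPM in CrT-KO. Their Atp2b3 was 99.8 and 33.7 CPM in controls and 27.6 and 98.6 CPM in CrT-KO. For both genes control replicate 1 and CrT-KO replicate 2 were high together, irrespective of genotype, and the part of neuronal RNA in these levels was not tested. Their Atp1b1, at 200.3 CPM (166 to 246 CPM), overlapped that of PV-like nuclei.

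For each pump gene the genes with the most similar profile, up to 3 of which are given, were found by Pearson's r of mean log2(CPM + 1) over 20 classes and subclasses, among 9071 genes. The points share libraries, and the 2 neuronal classes contain their subclasses. Atp1b2 was closest to Nhsl1 (r = 0.93), Atp13a4 (0.93) and Fgfr3 (0.93), the last of which was among the astrocyte markers used to name clusters. Atp2b3 was closest to Ksr2 (0.98), Sptbn4 (0.98) and Srrm3 (0.98), and Atp2b2 was close to Cacnb1 (0.91) and Gnaz (0.91). Atp2b1 was closest to Icam5 (0.92), Col6a1 (0.91) and Arf3 (0.90), and Atp2b4 to Hpcal4 (0.89), Diras2 (0.87) and Zfp831 (0.87). The nearest genes were less close for Atp1b1, with Sclt1 (0.86), Afg3l2 (0.85) and Sod2 (0.84), and for Atp1b3, with Zfp169 (0.84), Acsl1 (0.81) and Plekhh2 (0.81). Among the pump genes themselves the highest r was 0.75, between Atp2b2 and Atp2b3, followed by 0.70 between Atp2b1 and Atp2b4, and the lowest was -0.69, between Atp1b2 and Atp1b3.

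The genotypes were compared on UMIs summed per library and population, with edgeR's quasi-likelihood test and Benjamini-Hochberg adjustment over all genes tested in the population (threshold 0.1). None of the 7 genes was called in any population, over 128 gene and population pairs that passed the filter on low counts of 147 possible. The background was 335 calls among 192430 pairs, or 0.174%, and the count of 0 among 128 pairs is read against that share. The smallest edgeR adjusted p was 0.611, for Atp2b2 in L4/5-like nuclei. Of the 128 pairs, 6 had an unadjusted edgeR p under 0.05. Among all genes tested, that share ran from 1.17% in endothelial cells and pericytes to 9.10% in L4/5-like nuclei. It was 5.19% in inhibitory neurons, and nothing is read from the count of 6. DESeq2 and the other alternatives tested on library sums likewise called 0 of 1427 pairs. With 2 animals per genotype, these p-values rest on little replication, and in summed nuclei a lower level per nucleus cannot be told apart from a change in the mixture of cells within a population.

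In excitatory neurons, where 28 of 13957 genes were called (0.201%), the values of all pump genes but the scarce Atp1b2 were close between genotypes. Atp2b1 was 708 and 675 CPM in controls and 671 and 681 CPM in CrT-KO. Atp2b2 was 679 and 698 CPM in controls and 670.0 and 653 CPM in CrT-KO, with both CrT-KO libraries below both controls. That order was found for 20.2% of all genes tested in excitatory neurons. Over the libraries Atp2b1 thus ran from 671 to 708 CPM and Atp2b2 from 653 to 698 CPM. The 95% confidence interval of the fold change (CrT-KO over control) was 0.888 to 1.08 for Atp2b1 and 0.874 to 1.06 for Atp2b2. It was 0.861 to 1.07 for Atp1b1, 0.878 to 1.11 for Atp1b3, 0.891 to 1.11 for Atp2b3 and 0.872 to 1.09 for Atp2b4. Changes beyond these bounds are thus outside what the fit allows at 95% for 6 of the 7 genes, while the interval of the scarce Atp1b2 was wide, at 0.626 to 1.25. The log2FC values lay between -0.18 (Atp1b2) and -0.01 (Atp2b3), with edgeR adjusted p from 0.847 to 0.984. Leaving out 1 library turned the sign for Atp1b1, Atp1b2, Atp1b3, Atp2b3 and Atp2b4.

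**Figure D3:**
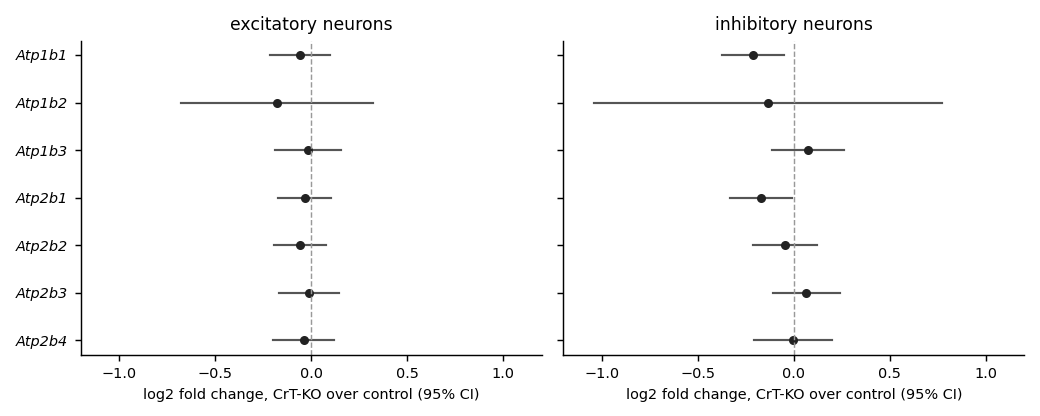
Log2 fold change (log2FC) of each pump gene, CrT-KO over control, in excitatory (left) and inhibitory neurons (right), with the 95% confidence interval of the edgeR fit as a line. All intervals cross 0 except those of Atp1b1 (-0.21) and Atp2b1 (-0.17) in inhibitory neurons, neither of which was called after adjustment.

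Inhibitory neurons held the lowest unadjusted p of the main classes for Atp1b1, and 8 of 12895 genes were called there (0.0620%). Atp1b1 was 154 and 160.0 CPM in controls and 135 and 137 CPM in CrT-KO (log2FC -0.21, SE 0.08, unadjusted p 0.0126, adjusted p 0.907 by edgeR, 95% interval of the fold 0.771 to 0.965). Atp2b1 was 568 and 575 CPM in controls and 500.4 and 515 CPM in CrT-KO (log2FC -0.17, SE 0.08, unadjusted p 0.0389, adjusted p 0.953 by edgeR). Both CrT-KO libraries lay below both controls for these genes, an order found for 17.7% of all genes tested in inhibitory neurons. The remaining 5 genes had log2FC values between -0.13 (Atp1b2) and 0.07 (Atp1b3), with edgeR adjusted p of 0.991 to 0.997. Leaving out 1 library at a time kept Atp1b1 between -0.24 and -0.19 and Atp2b1 between -0.19 and -0.15, and neither was called.

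The effect was set against that in excitatory neurons through an interaction of genotype and class, with the library as a block. The difference (inhibitory minus excitatory log2FC) was -0.16 for Atp1b1 (SE 0.07, adjusted p 0.682 by edgeR) and -0.14 for Atp2b1 (SE 0.06, adjusted p 0.691 by edgeR). For the other genes it lay between 0.01 and 0.08. None of the 7 was called, beside 9 of 14185 genes (0.0634%).

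Within the inhibitory subclasses, Atp1b1 was lower in both CrT-KO libraries than in both controls in each of the 5 named subclasses, with none called. In LAMP5-like nuclei it was 204 and 141 CPM in controls and 105 and 122 CPM in CrT-KO, from 88, 104, 74 and 62 UMIs (log2FC -0.57, SE 0.20, unadjusted p 0.00655, adjusted p 0.665 by edgeR). Without control replicate 1 this was -0.32, and without control replicate 2 it was -0.86. In PV-like nuclei the log2FC was -0.19 (SE 0.10, adjusted p 0.923 by edgeR), and in MSN-like nuclei, where the groups were nearly in contact, it was -0.07 (SE 0.11, adjusted p 0.962 by edgeR). Over the 18 populations Atp1b1 had a negative fold change in 16 and groups without overlap in the lower direction in 11, against 18.0% of all gene and population pairs, with 1 in the higher direction against 17.3%. These populations come from the same 4 animals and are not independent of each other, and their median log2FC was -0.15. The most negative value was in oligodendrocyte precursors, -0.73 (SE 0.27, unadjusted p 0.0139, adjusted p 0.851 by edgeR), from 40, 51, 31 and 14 UMIs.

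**Figure D4:**
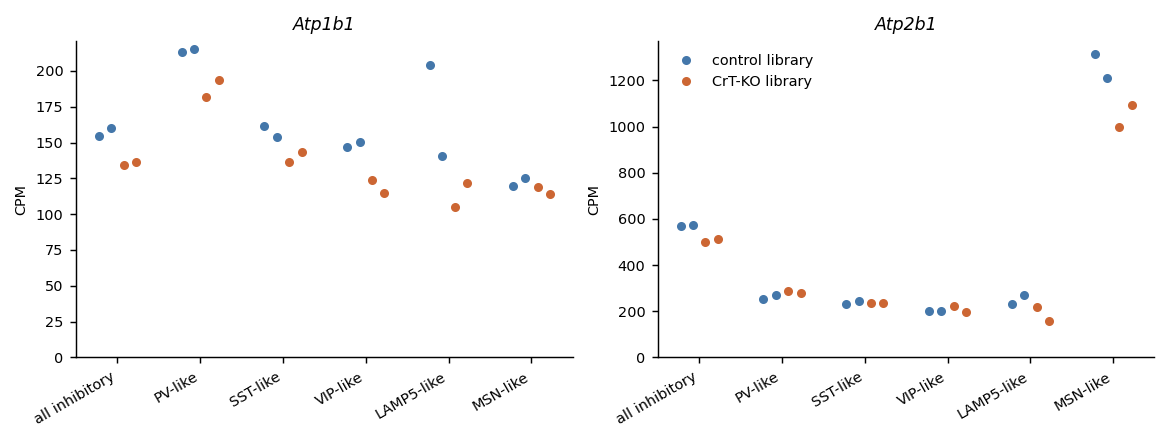
Level of Atp1b1 (left) and Atp2b1 (right) in CPM, axes from 0, in all inhibitory neurons and their named subclasses, with one point per library in blue for control and orange for CrT-KO. For Atp1b1 the CrT-KO points lie below the control points in each column, and for Atp2b1 they do so in all inhibitory neurons, LAMP5-like and MSN-like nuclei.

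In MSN-like nuclei, where Atp2b1 was most abundant, both CrT-KO libraries lay below both controls (log2FC -0.27, SE 0.11, unadjusted p 0.0189, adjusted p 0.749 by edgeR). In PV-like nuclei the value was 0.10 (SE 0.09) and in SST-like nuclei -0.02 (SE 0.10), neither called. The MSN-like share of inhibitory neurons was 34.2% and 31.2% in the control libraries against 33.8% and 30.1% in the CrT-KO libraries, and their part in the inhibitory value of Atp2b1 was not tested. In LAMP5-like nuclei the log2FC of Atp2b1 was -0.39 (SE 0.17, unadjusted p 0.0293, adjusted p 0.967 by edgeR). Over the 18 populations Atp2b1 was negative in 10 and positive in 8, with 5 lower and 4 higher without overlap. Atp2b2 was negative in 13 and positive in 5, with 5 lower and 2 higher without overlap. Both counts stand beside the same background of 18.0% lower and 17.3% higher, and nothing is read from them.

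In astrocytes, where Atp1b2 is concentrated, its log2FC was -0.65 (SE 0.36, unadjusted p 0.0860, adjusted p 0.999 by edgeR), and the 95% interval of the fold ran from 0.378 to 1.07. Leaving out 1 library moved it between -1.07 and -0.33, and it was not called. Atp1b3 in oligodendrocytes had a log2FC of 0.13 (SE 0.13, adjusted p 0.891 by edgeR), with all values between 96.7 and 112 CPM.

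Atp2b3 lies on the X chromosome 102.1 kb from Slc6a8, with the protein-coding genes Dusp9 and Pnck between them. Over all named nuclei Atp2b3 measured 78.2 and 75.0 CPM in controls and 76.1 and 79.6 CPM in CrT-KO (log2FC 0.02, SE 0.06, adjusted p 0.968 by edgeR). The genotypes overlapped, next to the fall of Slc6a8 itself. Pnck had a log2FC of -0.08 (adjusted p 0.952 by edgeR), and Dusp9, at 0.0977 CPM or less in each library, was not tested.

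The wider machinery of sodium and calcium transport was followed through 27 further genes, all present in the matrices, of which 26 could be tested in at least one population. Over 352 gene and population pairs the test called 2 lower in CrT-KO and 0 higher, beside 0.174% called in either direction among all gene and population pairs. Among 11 regulators of the sodium pump, the FXYD proteins and the Nkain proteins that bind its β subunit, Nkain2 and Nkain3 had the most UMIs. Nkain2 was highest in oligodendrocytes (mean 16101 CPM, 14574 to 17404 CPM). The call was for Nkain3 in L5-IT-like nuclei, at 214 and 210 CPM in controls and 157 and 156 CPM in CrT-KO (log2FC -0.44, SE 0.11, adjusted p 0.0829 by edgeR), where 0.204% of the genes were called lower. The call was lost with DESeq2 (adjusted p 0.682), without the filter on low counts, and when any single library was left out, while the log2FC in these fits stayed between -0.44 and -0.42. It was kept with doublets kept (adjusted p 0.0517 by edgeR) and with the pump and pathway genes allowed in the clustering (0.0226). The replicate block kept it too (adjusted p 0.00379 by edgeR). That block raised the calls over all genes in excitatory neurons from 28 to 619, so nothing is read from it. Values of similar size that were not called were found in L2/3-like (-0.41, adjusted p 0.116), L4/5-like (-0.35, 0.167) and L6-IT-like nuclei (-0.61, 0.480 by edgeR). Outside the excitatory subclasses, VIP-like nuclei had -0.58 (adjusted p 0.893 by edgeR). Oligodendrocyte precursors (0.42, adjusted p 0.851) and L6b-like nuclei (0.34, 0.993 by edgeR) went the other way, and neither was called. Over all excitatory neurons Nkain3 had a log2FC of -0.26 (SE 0.08, adjusted p 0.365 by edgeR).

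Of the 9 sodium-calcium exchangers, most of which carry calcium out of the cell at the expense of the sodium gradient, Slc24a3 was called in L5-ET-like nuclei. It was 227 and 245 CPM in controls and 154 and 153 CPM in CrT-KO (log2FC -0.62, SE 0.11, adjusted p 0.00464 by edgeR), and 0.173% of genes were called lower there. DESeq2 called it too (adjusted p 0.0623), and so did the fit without each of the libraries, at edgeR adjusted p from 0.00317 to 0.0311. With doublets kept the log2FC was -0.48 and the call was lost (adjusted p 0.342 by edgeR). In L5-IT-like nuclei, the neighbouring layer 5 class, Slc24a3 had a log2FC of -0.03 (SE 0.09, adjusted p 0.980 by edgeR). Both CrT-KO libraries lay below both controls in L6b-like (-0.55, SE 0.16, adjusted p 0.721), L6-CT-like (-0.43, SE 0.11, adjusted p 0.196) and L4/5-like nuclei (-0.20, SE 0.08, adjusted p 0.396 by edgeR), none of them called. In L6-IT-like nuclei both lay above both controls (0.21, SE 0.14, adjusted p 0.858 by edgeR), also not called. The genotypes overlapped in NP-like (0.11) and L2/3-like nuclei (0.0036). Among all gene and population pairs, 18.0% were lower and 17.3% higher without overlap, so nothing is read from these orders. Differences between the subclasses were not tested. The exchangers with the most UMIs were Slc24a2, highest in oligodendrocytes (mean 8002 CPM, 7534 to 8443 CPM), and Slc8a1, highest in microglia (mean 3447 CPM, 3053 to 3669 CPM).

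**Figure D5:**
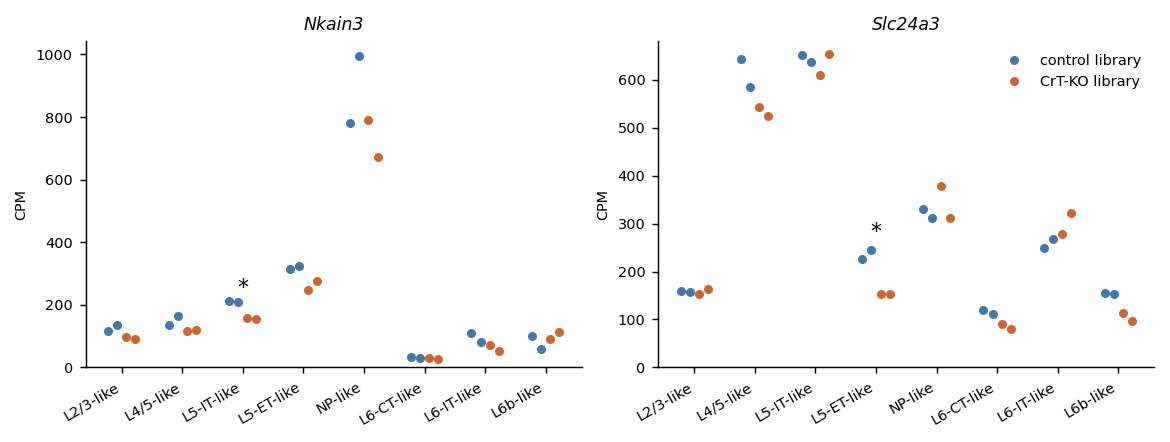
Level of Nkain3 (left) and Slc24a3 (right) in CPM, axes from 0, in the 8 excitatory subclasses, with one point per library in blue for control and orange for CrT-KO. Asterisks mark the subclass with an edgeR adjusted p under 0.1, which is L5-IT-like for Nkain3 (0.0829) and L5-ET-like for Slc24a3 (0.00464).

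None of the 5 calcium pumps of the endoplasmic reticulum and Golgi, nor the 2 partners of the plasma membrane calcium pumps, was called in any population. Atp2a2, the main pump that refills the endoplasmic reticulum, was highest in astrocytes (mean 257 CPM, 203 to 335 CPM), and Atp2c1, the pump of the Golgi, in microglia (mean 386 CPM, 321 to 422 CPM). Nptn and Bsg encode the membrane proteins neuroplastin and basigin, which assemble with the calcium pumps. Nptn was highest in L2/3-like (604 CPM) and L6-CT-like nuclei (602 CPM), and Bsg in endothelial cells and pericytes (203 CPM, 91.0 to 347 CPM).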

How the data were processed

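Nuclei of 2 control and 2 CrT-KO animals were counted by the authors with Cell Ranger 3.1.0 on GRCm38 (mm10). A pre-mRNA reference was used, so intronic reads entered. The submitters' processing notes also name Seurat 3.1.4 and FastQC. The deposited matrices hold raw UMI counts of called nuclei, without cell types; strand use is not given in the sources used here.

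Scrublet doublets were removed. Each nucleus was scaled to 10000 and log-transformed, then clustered (scanpy 1.11.5, Leiden resolution 1.0, 3000 variable genes, 30 components, 20 neighbours) without 38 pump and pathway genes. A cluster of at least 20 nuclei took the class with the highest marker score if at least 3 of its markers reached 10% of the nuclei and no other class led its top 10 genes. In that count, folds were taken against clusters of other best classes, and markers that a class shares with its own subclasses were not held against it. Subclasses needed a score of 0.5. The naming rule was set with the matrices already seen, names were rebuilt here, and 39 of 41 clusters were named. Of named nuclei, 2646 excitatory and 2193 inhibitory took no subclass.

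Sums of UMIs per library and population were tested with edgeR 4.0.16 in R 4.3.3 (quasi-likelihood, TMM, filterByExpr). CPM uses all UMIs of the population with the TMM factor. Depth ranged from 132348 UMIs in the smallest astrocyte sum to over 34427361 in excitatory neurons. Intervals reflect these few libraries, not all sources of error. Replicates are separate animals. The scripts were tested on simulated counts.

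Replicate numbers do not come from a shared animal, and no label ties them to a litter or day. Named genes were all 7 members, Slc6a8, pathway genes that were called or had the most UMIs (2 per group), and the 3 nearest genes by profile. Members and lists were chosen with earlier results of these data known. Catalytic subunits of the sodium pump and 1 of the nearest genes are not reported here. Alternatives were DESeq2 1.42.0, no low-count filter, a replicate block, doublets kept, single libraries left out, a stricter filter on nuclei (1000 UMIs and under 5% mitochondrial UMIs), a threshold of 0.05, Leiden resolution 0.8, the pump genes allowed in clustering, CPM without TMM, and a rank-sum test over nuclei.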

Additional observations from a re-analysis of the deposited data

How the results depend on the processing

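No member was called under any alternative on library sums. The rank-sum test over nuclei, which takes nuclei of the same animal as replicates, called 4 in excitatory neurons at a Bonferroni-adjusted p under 0.1 (Atp1b1, Atp2b1, Atp2b2 and Atp2b4, the last at 0.0716). The share of all genes that this test calls is not given here, so nothing is read from that count. The replicate numbers were not taken as pairs, because no label ties them to a litter or day. Deviations of same-numbered libraries had r = 0.25 in excitatory and 0.17 in inhibitory neurons. Whether the numbers stand for a shared batch was not tested. With the number as a replicate block, calls went from 28 to 619 genes in excitatory and from 8 to 158 in inhibitory neurons, with 0 members called (smallest edgeR adjusted p 0.115, Atp1b1 in inhibitory neurons).

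The count of 2 called pathway genes became 4 without the low-count filter, 10 with the replicate block, 1 with doublets kept, and 1 (without control replicate 2) to 7 (without control replicate 1) when a library was left out. The cause was not tested. The share of all gene and population pairs called under each of these settings is not given here, so nothing is read from these counts.

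Several small log2 fold changes turned sign when a library was left out. In excitatory neurons Atp1b1 ran from -0.13 to 0.0088 (without CrT-KO replicate 2), Atp1b2 from -0.43 to 0.012 (without CrT-KO replicate 2), Atp1b3 from -0.081 to 0.046 (without control replicate 1), Atp2b3 from -0.063 to 0.042 (without CrT-KO replicate 1, also 0.0031 without control replicate 2) and Atp2b4 from -0.093 to 0.014 (without CrT-KO replicate 2, also 0.0073 without control replicate 2). In inhibitory neurons Atp1b2 ran from -1.33 to 0.39 (without CrT-KO replicate 2, also 0.18 without control replicate 2). There Atp2b4 ran from -0.097 to 0.10 (without control replicate 2, also 0.043 without CrT-KO replicate 2), and was 0.0030 with DESeq2 and 9.1e-05 with the replicate block.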
